A study of Rattus norvegicus with 16 samples.

Results

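Genes for the proteins of the mitochondrial ribosome were followed in rat neural stem and progenitor cells that had been left without growth factor or given platelet-derived growth factor AA (PDGF-AA). Members were all genes that the chip annotation names by a single symbol beginning with Mrpl or Mrps and a digit. This gave 46 genes, measured by 51 of the 15151 features of the array, among 6241 named genes tested. By symbol, 34 members belong to the large subunit (Mrpl) and 12 to the small subunit (Mrps), and all 46 entered the tests. Mrpl15 had 3 features and Mrpl48, Mrpl50 and Mrps17 had 2 each, which were averaged on each array. The features of Mrpl15 differed in sign without factor at 12 h, and those of Mrps17 with PDGF-AA at 6 d.

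The mitochondrial ribosome makes the few respiratory chain proteins that mitochondrial DNA encodes. Its RNA comes from the mitochondrial genome, whereas all of its proteins are encoded in the nucleus, made in the cytosol and imported. Part of them descend from bacterial ribosomal proteins and the rest were added in the mitochondrial lineage. Growing cells are known to make ribosomes of both kinds for new organelles and cytoplasm, and neural progenitors rely less on respiration than the neurons they give rise to.

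Cells came from embryonic neocortex (Sprague-Dawley rats, day 14.5) and were expanded as a monolayer on poly-L-ornithine and fibronectin. The medium held 10 ng/ml of FGF-2, the fibroblast growth factor that keeps such cells dividing. The 4 groups were cells without added factor for 12 h, cells with PDGF-AA at 10 ng/ml for 12 h, cells without factor for 6 d and cells with PDGF-AA at 10 ng/ml for 6 d. The design text describes growth without factor as inducing differentiation. Every sample was hybridised against RNA of FGF-2-treated cells, so each value is a log ratio of a sample to that reference, and 4 arrays were made for each group with the dyes swapped on 2 of them. At least 2 RNA preparations stood behind each group, and the labels do not say which arrays share one, so each p-value reflects differences between hybridisations that can be technical in part. Whether FGF-2 was also present with PDGF-AA is not given in these sources.

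Rat RNA was read on mouse cDNA, and the symbols are those of the mouse. The base of the logarithm is taken as 2, and the direction as sample over reference, which is likely but not stated. It rests on the genes of the cell cycle and DNA replication: all 23 of 23 tested were below 0 and past the threshold without factor at 12 h, with a median change of -1.333 on the log2 scale. Throughout, a change is a fitted log2 difference with its standard error (SE) from limma, "lower" and "higher" mean an adjusted p under 0.05 over all 12559 units tested (genes or unnamed features), and array numbers 1 to 4 are names in accession order. RNA was taken from whole cultures, so fewer cells of a type and less RNA per cell cannot be told apart. Of the markers of other cell types, 4 of 5 astrocyte and 3 of 3 oligodendrocyte lineage genes tested were higher without factor at 6 d, and 2 of 5 and 2 of 3 with PDGF-AA at 6 d. Of neuronal markers, 2 of 4 were higher without factor at 6 d, and with PDGF-AA at 6 d limma called 0 of 4 (2 at an unadjusted p under 0.05). Of the progenitor markers, 1 of 3 was lower at 6 d without factor and with PDGF-AA alike, namely Nes, the intermediate filament nestin, at -0.89 ± 0.12 (SE) and -0.83 ± 0.12. Another 1 of 3, Vim (vimentin), was lower without factor at 12 h, at -0.81 ± 0.13. The other lists were mixed at that time. Of 4 neuronal markers 2 were higher and 1 lower, namely Gap43 at -0.52 ± 0.11. Of 5 astrocyte markers 1 was higher and 1 lower, namely Slc1a3 at -0.44 ± 0.13, and of 3 oligodendrocyte lineage markers 1 was higher. Of 6 microglial markers none was tested, and of 6 endothelial markers 2 were tested with 0 past the limma threshold in any of the comparisons with the reference (0 at an unadjusted p under 0.05 in each). The values are ratios and hold no levels, and the part of cell composition in the changes below was not tested.

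The promoters of the 4 members that were lower in both groups without factor are shown first, since these genes recur in the results. The share of all units lower in both groups was not counted, so the overlap is not read as a trait of the members. They are the rat RefSeq sequences of build GRCr8, each from 250 bases before to 50 bases after the gene's start, and capitals mark a match to a searched motif on either strand. The window of Mrpl12 is chr10:106256496-106256795 on the plus strand, that of Mrpl17 chr1:169575650-169575949 on the minus strand, that of Mrpl18 chr1:50384702-50385001 on the plus strand and that of Mrps18b chr20:2842756-2843055 on the plus strand.
Mrpl12: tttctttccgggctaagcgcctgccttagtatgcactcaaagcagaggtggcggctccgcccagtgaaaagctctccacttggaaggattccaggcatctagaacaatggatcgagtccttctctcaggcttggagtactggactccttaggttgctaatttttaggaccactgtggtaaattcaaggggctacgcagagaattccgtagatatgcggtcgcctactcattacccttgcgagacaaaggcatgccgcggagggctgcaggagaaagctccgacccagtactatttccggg
Mrpl17: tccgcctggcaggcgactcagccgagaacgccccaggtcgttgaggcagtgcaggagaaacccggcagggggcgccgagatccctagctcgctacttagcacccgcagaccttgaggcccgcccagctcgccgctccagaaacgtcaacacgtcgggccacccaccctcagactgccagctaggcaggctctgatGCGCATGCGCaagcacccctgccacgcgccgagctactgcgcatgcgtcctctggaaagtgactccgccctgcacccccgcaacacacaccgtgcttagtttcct
Mrpl18: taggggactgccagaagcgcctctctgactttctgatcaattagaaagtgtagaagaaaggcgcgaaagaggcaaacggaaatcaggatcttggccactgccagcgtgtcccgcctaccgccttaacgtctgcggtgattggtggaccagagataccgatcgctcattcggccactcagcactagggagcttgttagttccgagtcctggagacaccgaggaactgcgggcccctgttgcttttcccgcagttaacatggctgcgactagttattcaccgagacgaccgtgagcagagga
Mrps18b: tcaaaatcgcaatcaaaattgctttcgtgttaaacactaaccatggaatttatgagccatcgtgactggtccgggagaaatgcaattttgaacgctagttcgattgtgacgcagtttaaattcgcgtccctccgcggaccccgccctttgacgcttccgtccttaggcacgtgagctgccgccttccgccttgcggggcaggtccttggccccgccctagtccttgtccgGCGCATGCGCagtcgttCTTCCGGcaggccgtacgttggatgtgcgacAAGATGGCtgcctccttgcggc
The Mrpl17 window holds 1 match, to the core of the nuclear respiratory factor 1 site, and the Mrps18b window holds 1 match to each of the 3 motifs, while those of Mrpl12 and Mrpl18 hold none.

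The motifs were the cores of sites known from promoters of genes for mitochondrial proteins, namely CCGGAAG (ETS factors such as GABP), AAGATGGC (YY1) and, for NRF1, GCGCA followed by any base and GCGC, each searched on both strands. A RefSeq promoter was found for 35 of the 46 members. The ETS core stood in 13 of these 35 promoters (37.1%), against 9.22% of all 27457 rat promoters and 11.2% of those of 19005 protein-coding genes. For the NRF1 core the count was 6 of 35 (17.1%), against 4.71% and 6.09%, and for the YY1 core 12 of 35 (34.3%), against 3.44% and 3.92%. Any of the 3 motifs was present in 22 member promoters and none in 13, and in 0 of them did matches of different motifs overlap. The promoters of Mrpl46 and Mrps11, a large and a small subunit gene, are 2 windows on opposite strands of chromosome 1 that share 267 bases, so the counts are not fully independent. Among the 12 members with a promoter that were lower without factor at 6 d, 5 held the ETS core, 4 the NRF1 core and 3 the YY1 core; among the other 23 the counts were 8, 2 and 9. These matches describe the letters of the windows and do not show binding.

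**Figure D1:**
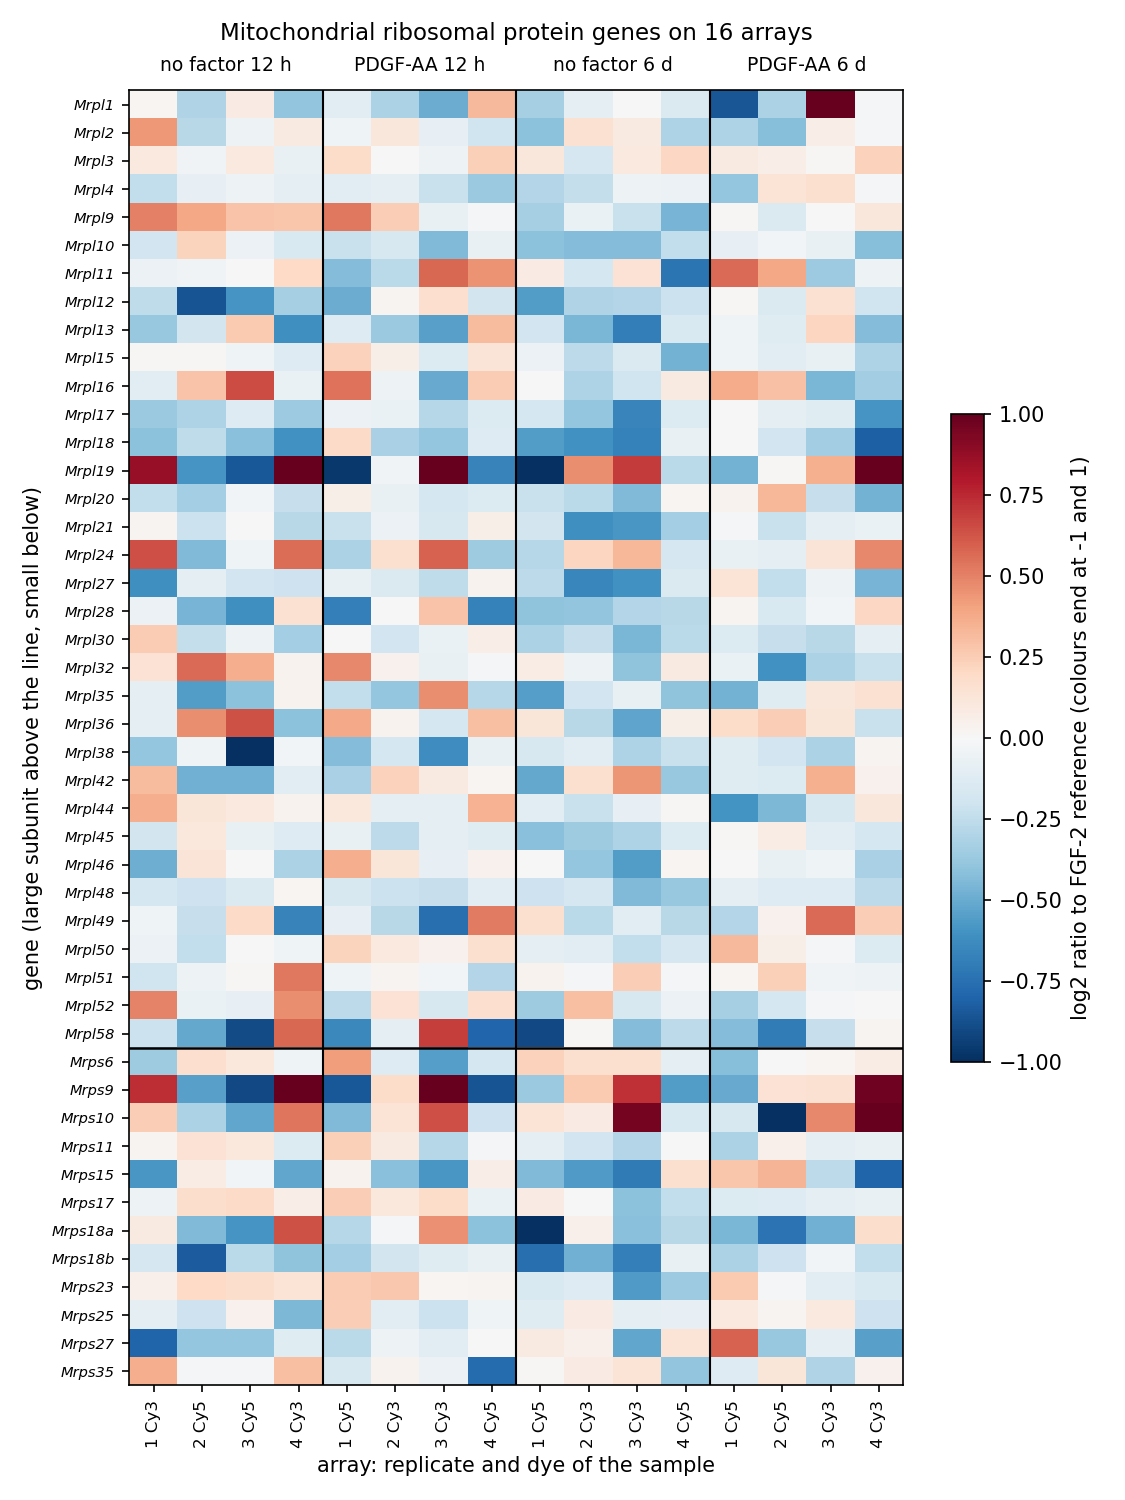
Log2 ratio to the FGF-2 reference of each of the 46 members (rows, large subunit above the line, small subunit below) on each of the 16 arrays (columns, by group, with replicate number and dye of the sample). Blue is below and red above the reference, with colours ending at -1 and 1. Most members are below 0 in every column, and the 4 columns of no factor at 6 d hold the most such members. Rows such as Mrpl19 and Mrps9 alternate with the dye.

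Without factor for 6 d, 14 of the 46 members were lower than in the FGF-2 reference and 0 were higher. This is 30.4% of the members, against 13.7% of all units past the threshold in either direction, 6.73% lower and 6.99% higher. The 14 comprised 10 of 34 large subunit genes and 4 of 12 small subunit genes, and the drops ranged from -0.30 to -0.50 on the log2 scale. The fitted change lay below 0 for 40 of 46 members, with a median of -0.185 (large subunit -0.23, small subunit -0.1), where the median over all units was 0.004. Members listed with a bacterial counterpart and members listed as special to mitochondria gave similar counts, with 9 of 29 and 5 of 17 lower. Of the related S18 proteins only Mrps18c stood in the bacterial list. Mrps18a and Mrps18b were thus counted as special and are among those 5, and counts with both moved were not made.

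The stalk of the large subunit, where translation factors dock, was represented by Mrpl12, the stalk protein itself, and by Mrpl10, which holds it to the ribosome. For Mrpl10 the log2 ratios on arrays 1 to 4 were -0.41, -0.44, -0.43 and -0.24, a change of -0.38 ± 0.09 (SE; n = 4; limma adjusted p = 0.00558). Mrpl12 read -0.56, -0.30, -0.29 and -0.21, a change of -0.34 ± 0.10 (adjusted p = 0.0313). All 4 arrays lay below 0 for both genes. Mrpl11, also of the stalk base, did not pass the threshold in this group.

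In the body of the large subunit, Mrpl18, whose bacterial relative sits in the central protuberance, was among the lowest. Its arrays read -0.56, -0.60, -0.67 and -0.08, so array 4 was close to the reference and the others were clearly below it, and the change was -0.48 ± 0.10 (adjusted p = 0.00381), or 71.7% of the reference. Mrpl21, the relative of bacterial L21, read -0.19, -0.62, -0.58 and -0.34, a change of -0.43 ± 0.09 (adjusted p = 0.00325). Mrpl27, whose bacterial relative reaches towards the peptidyl transferase centre, read -0.26, -0.65, -0.60 and -0.15, a change of -0.42 ± 0.10 (adjusted p = 0.00672). In both Mrpl21 and Mrpl27 the 2 arrays with the sample in Cy3 (arrays 2 and 3) were the lowest. Their means by dye were -0.60 with Cy3 against -0.26 with Cy5 for Mrpl21, and -0.63 against -0.20 for Mrpl27.

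The other large subunit genes that were lower had changes between -0.30 and -0.37. Mrpl13, the relative of a protein that joins the bacterial subunit early in assembly, read -0.19, -0.46, -0.69 and -0.15, a change of -0.37 ± 0.12 (adjusted p = 0.0496). Mrpl17, the relative of a bacterial protein near the exit tunnel, read -0.17, -0.39, -0.66 and -0.14, a change of -0.34 ± 0.09 (adjusted p = 0.0181). Mrpl30 read -0.31, -0.23, -0.46 and -0.27, a change of -0.32 ± 0.09 (adjusted p = 0.032). These 3 genes were below 0 on every array of the group. Mrpl45, a protein special to mitochondria that ties the exit tunnel to the inner membrane, read -0.42, -0.36, -0.31 and -0.14, a change of -0.31 ± 0.08 (adjusted p = 0.0116). Mrpl48, also special to mitochondria and part of the central protuberance, read -0.21, -0.17, -0.44 and -0.38, a change of -0.30 ± 0.08 (adjusted p = 0.0153). Both were again below 0 on all 4 arrays.

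Of the small subunit, Mrps18b, 1 of 3 related proteins named S18 in mitochondria, read -0.75, -0.48, -0.69 and -0.08. Its change was -0.50 ± 0.12 (adjusted p = 0.00751), or 70.7% of the reference. Mrps15, the relative of a bacterial protein that binds the platform early in assembly, read -0.44, -0.57, -0.70 and 0.16, so array 4 was above 0, and the change was -0.39 ± 0.10 (adjusted p = 0.0185). Mrps23, special to mitochondria, read -0.15, -0.13, -0.57 and -0.36, a change of -0.30 ± 0.09 (adjusted p = 0.0354). Mrps18a, a paralog of Mrps18b that structures place in the large subunit despite its symbol, read -1.27, 0.05, -0.41 and -0.28, a change of -0.48 ± 0.15 (adjusted p = 0.0473). Array 1 alone carried the lowest value of Mrps18a and array 2 was at the reference. The remaining 8 small subunit genes did not pass, and their changes ran from -0.14 for Mrps11 and Mrps17 to 0.26 ± 0.27 for Mrps10.

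The extremes of the large subunit that did not pass were Mrpl19 at -0.63 ± 0.34 (adjusted p = 0.317) and Mrpl3 at 0.06 ± 0.08 (adjusted p = 0.794). Mrpl19, the relative of a bacterial protein at the subunit interface, read -3.39, 0.46, 0.70 and -0.27, and without array 1 its change was 0.08. Mrpl3, which lies near the peptidyl transferase centre in bacteria, read 0.11, -0.17, 0.10 and 0.20. All 4 arrays lay below 0 for 19 members (17 large, 2 small), against 12.4% of all units, and all 4 lay above 0 for none of the 46, against 13% of units. Beside the genes named above, these 19 include Mrpl28, whose arrays lay between -0.40 and -0.28 and whose change was -0.34 ± 0.11 (adjusted p = 0.0594).

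**Figure D2:**
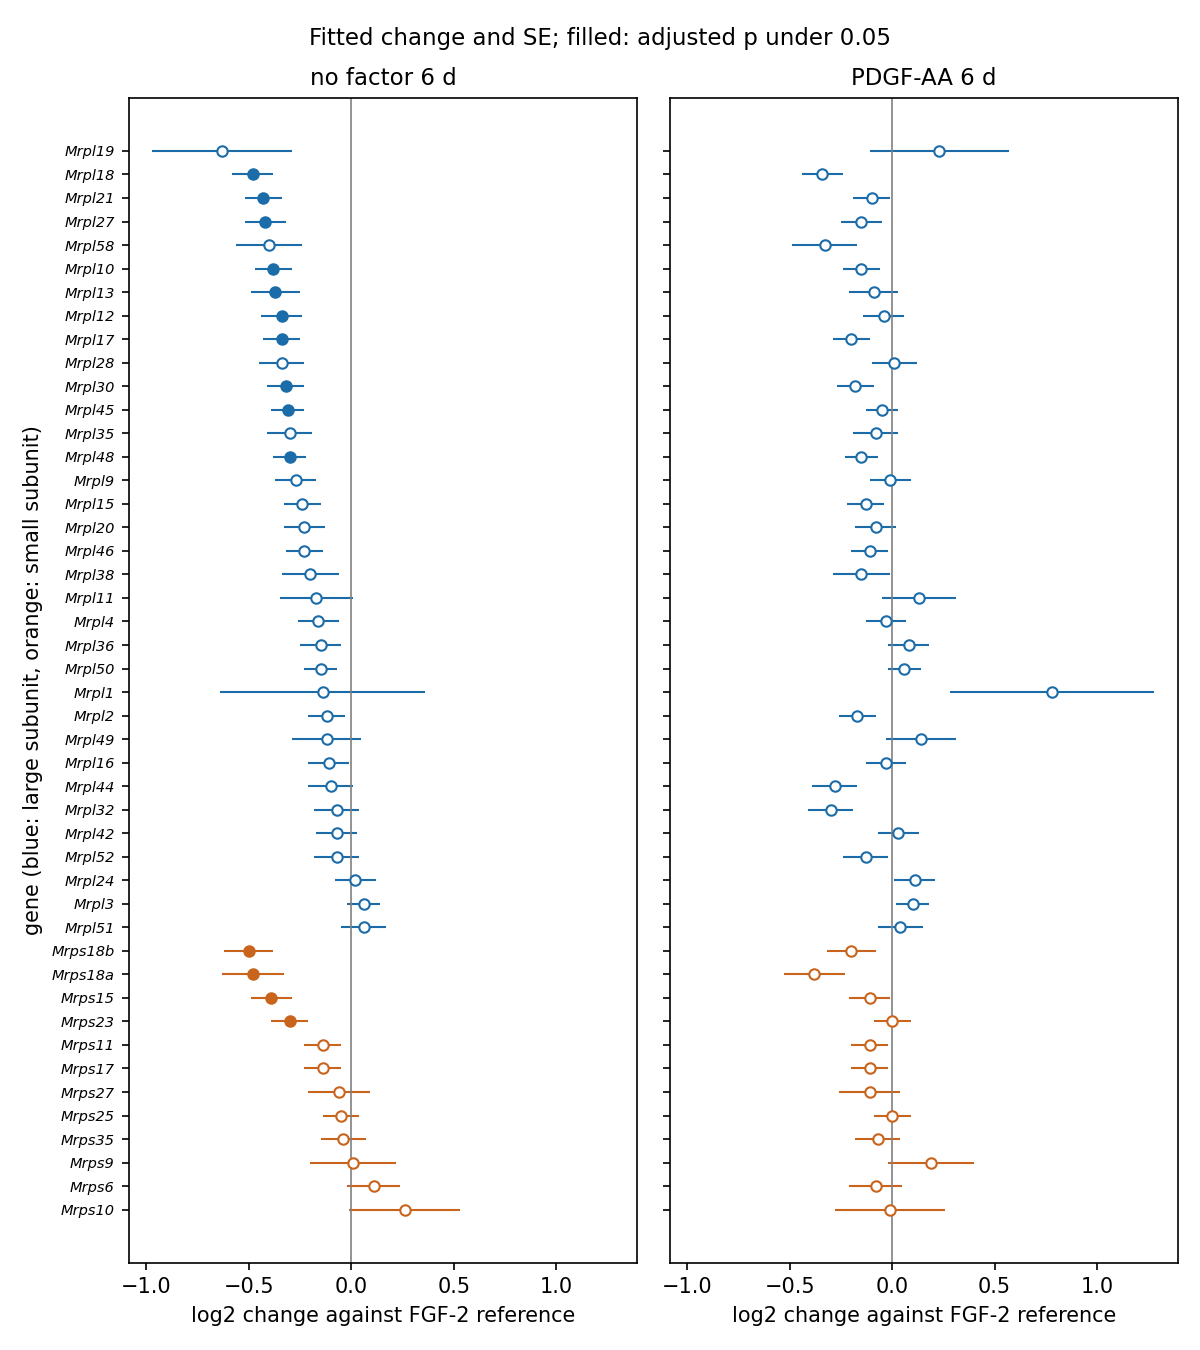
Fitted log2 change against the FGF-2 reference (points) with SE (bars) for each member after 6 d without factor (left) and with PDGF-AA (right); filled points have an adjusted p under 0.05. On the left 14 points are filled, all below 0, and on the right 0 are filled; the wide bars belong to Mrpl1 and Mrpl19, each of which has 1 far array.

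The count of 14 depended on the arrays. Without array 1 of no factor at 6 d it was 4 (8.7% of members, against 3.85% of units lower), and without array 3 it was 5 (10.9% against 3.73%). Leaving out any of the 4 arrays of the group left the median of the members between -0.215 and -0.183. Mrpl18, Mrpl21 and Mrpl27 stayed past the threshold in each of the 16 fits that left out 1 array. The calls of Mrpl13 and Mrps18a were lost in 12 of the 16, with an adjusted p of up to 0.22 and 0.364. Leaving out array 1, 2 or 3 of the group ended the call of Mrpl12 (adjusted p up to 0.157), array 1 that of Mrpl10 (0.0523) and Mrpl45 (0.116), and any of the 4 that of Mrpl30 (up to 0.177). Array 1 or 3 ended the calls of Mrpl17 (up to 0.154), Mrps15 (up to 0.198) and Mrps18b (up to 0.075), array 3 or 4 that of Mrpl48 (up to 0.12), and array 1, 3 or 4 that of Mrps23 (up to 0.245). Array 1 of this group is also 1 of the 4 arrays whose title carries another first number than the other 12, and the labels leave the meaning of that number unsaid. With that number as a term 6 members were lower (13%, against 4.28% of units), and on the 12 arrays alone 4 were lower (8.7%, against 4.37% of units). Both settings take array 1 out of this group's change, since no other array carries its number.

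Without factor for 12 h, 4 members were lower than in the reference and 1 was higher, together 10.9% of the members. Over all units 11.7% passed (6.48% of all units lower and 5.21% higher), so the members' share was near that of the array as a whole. With the title number as a term, or on the 12 arrays of the commonest number, 6 members were lower (13%, against 6.4% and 6.86% of units), as many as or more than at 6 d under the same settings. The median change was -0.082, 29 of 46 changes were below 0, and the counts were 3 lower and 1 higher of 34 large subunit genes and 1 lower of 12 small subunit genes. All 4 arrays lay below 0 for 10 members (12% of units) and above 0 for 4 (12.9% of units), namely Mrpl9, Mrpl32, Mrpl44 and Mrps23.

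Mrpl12 had the lowest change at 12 h. Its arrays read -0.25, -0.87, -0.59 and -0.33, all below 0, and the change was -0.51 ± 0.10 (adjusted p = 0.00293), or 70.3% of the reference. Mrpl18 read -0.41, -0.25, -0.42 and -0.60, a change of -0.42 ± 0.10 (adjusted p = 0.0111). Mrps18b read -0.17, -0.83, -0.27 and -0.40, a change of -0.42 ± 0.12 (adjusted p = 0.0263), and array 2 stood below the other 3. Mrpl17 read -0.37, -0.31, -0.13 and -0.37, a change of -0.29 ± 0.09 (adjusted p = 0.0456). These 4 genes are the ones whose promoters are printed above, and they were lower again at 6 d. Both comparisons use the same kind of reference RNA, and the share of all units lower at both times was not counted. Mrpl9, the relative of bacterial L9, went the other way, with 0.51, 0.38, 0.29 and 0.28 and a change of 0.36 ± 0.10 (adjusted p = 0.0241).

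Only the call of Mrpl12 held at 12 h in all 16 fits that left out 1 array. The call of Mrpl17 was lost in 11 of them (adjusted p up to 0.226), that of Mrpl9 without array 1, 2 or 3 of the group (up to 0.128), that of Mrpl18 without array 2 or 3 (up to 0.0943) and that of Mrps18b without array 2 or 4 (up to 0.234). The count fell to 1 without array 2. The lowest small subunit change was that of Mrps27, a protein with RNA-binding repeats, which read -0.80, -0.39, -0.39 and -0.12 and reached -0.43 ± 0.15 (adjusted p = 0.0783). The highest was that of Mrps9, 0.25 ± 0.21 (adjusted p = 0.528), with arrays at 0.74, -0.54, -0.90 and 1.73.

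**Figure D3:**
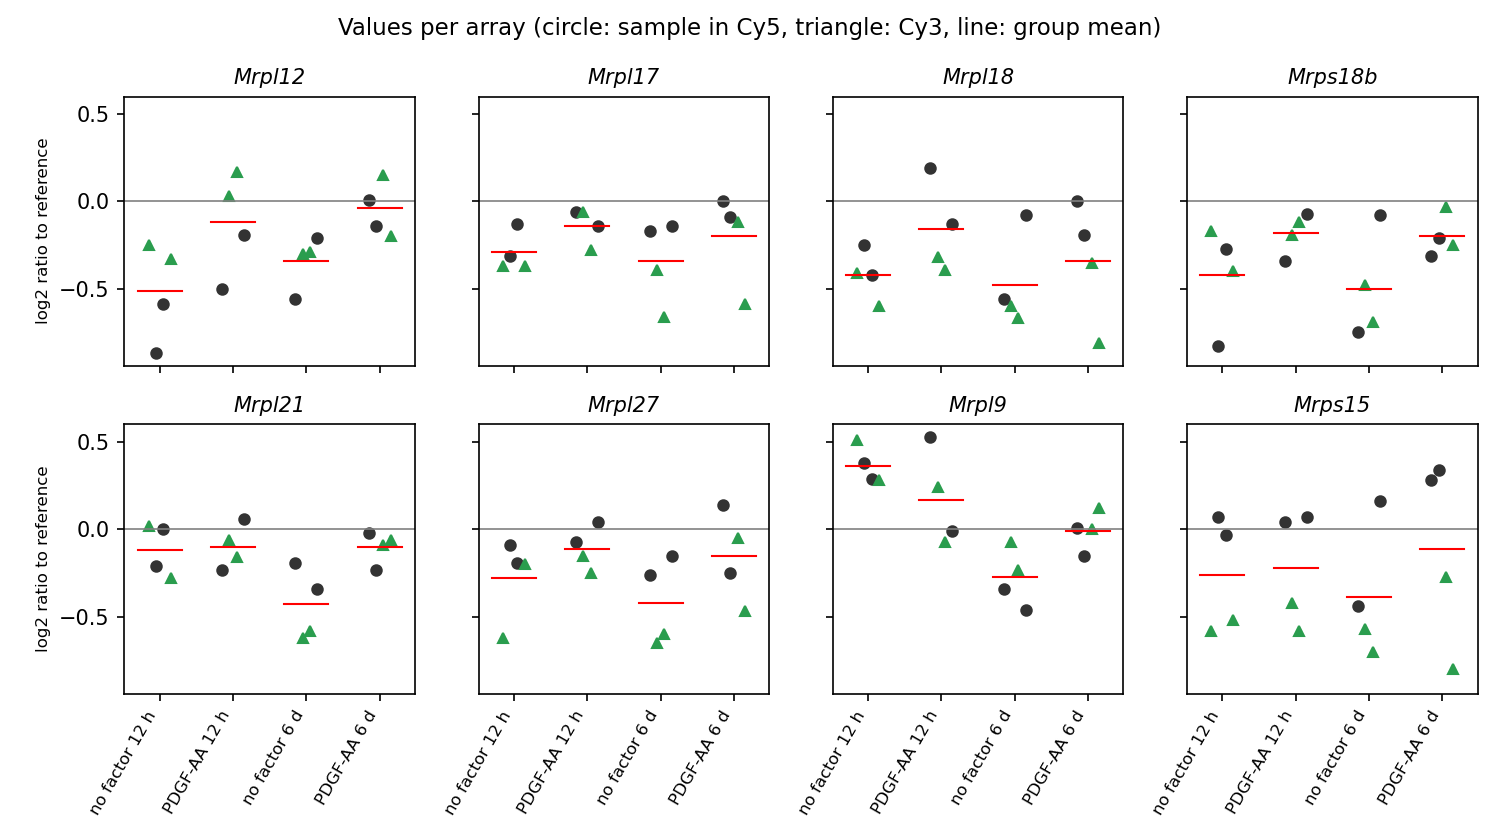
Log2 ratio to the reference on each array for 8 members in the 4 groups (circles, sample in Cy5; triangles, sample in Cy3; line, group mean). Mrpl12, Mrpl17, Mrpl18 and Mrps18b lie below 0 on all arrays of both groups without factor, and Mrpl9 lies above 0 on all 4 arrays at 12 h without factor and below 0 on all 4 at 6 d.

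With PDGF-AA, limma called 0 members against the reference at 12 h and 0 at 6 d, while 3.01% and 3.22% of all units passed. The units split into 2.35% lower and 0.661% higher at 12 h, and 1.32% lower and 1.9% higher at 6 d. At an unadjusted p under 0.05 there were 5 members at each time (10.9%, against 13.2% of units at 12 h and 15.5% at 6 d). At 12 h the median change was -0.09 with 30 of 46 below 0, and at 6 d it was -0.083 with 33 of 46 below 0. All 4 arrays lay below 0 for 8 members at 12 h (7.23% of units) and for 9 at 6 d (7.76% of units), and above 0 for 2 (6.46%) and 1 (8.32%), the last being Mrpl3.

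At 12 h with PDGF-AA the lowest large subunit change was that of Mrpl38, a protein of the central protuberance special to mitochondria. It read -0.43, -0.17, -0.62 and -0.08, a change of -0.33 ± 0.14 (adjusted p = 0.275). The highest was that of Mrpl9 at 0.17 ± 0.10 (adjusted p = 0.529), with 0.53, 0.24, -0.07 and -0.01, so its arrays spanned the reference. In the small subunit Mrps35 was lowest at -0.24 ± 0.11 (adjusted p = 0.389) and Mrps23 highest at 0.14 ± 0.09 (adjusted p = 0.59).

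At 6 d with PDGF-AA the lowest large subunit change was that of Mrpl18, which read 0, -0.19, -0.35 and -0.81. The change was -0.34 ± 0.10 (adjusted p = 0.09), and array 4 stood below the other 3. In the small subunit Mrps18a was lowest at -0.38 ± 0.15 (adjusted p = 0.232), with arrays at -0.46, -0.74, -0.48 and 0.17. Mrps9 was highest there at 0.19 ± 0.21 (adjusted p = 0.72). The highest fitted change of all, that of Mrpl1, the movable protein at the exit site for tRNA, was 0.78 ± 0.50 (adjusted p = 0.495) and came from 1 array. Mrpl1 read -0.86, -0.32, 4.31 and -0.02, and without array 3 its change was -0.40.

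The direct comparison of PDGF-AA with no factor gave 0 members in limma at 12 h (0.0159% of units passed) and 0 at 6 d (0.00796% of units). At an unadjusted p under 0.05 there were 3 members at 12 h (6.52%, against 5.42% of units) and 4 at 6 d (8.7%, against 8.76% of units), shares near those of the array as a whole. At 6 d the members' median difference was 0.138, with 37 of 46 higher with PDGF-AA, where the median over all units was 0.001; at 12 h it was 0.022, with 26 of 46 higher. A lower count with PDGF-AA against the reference is therefore not shown to be a difference between the treatments for any single gene.

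For some of the genes that were lower without factor at 6 d, the 95% intervals of the difference show how far this comparison reaches. These genes were picked for low values on the same arrays without factor. Their differences therefore lean upward, and the intervals are no separate test of PDGF-AA. The difference for Mrpl21 was 0.33 (0.06 to 0.60; adjusted p = 0.486), with PDGF-AA arrays at -0.02, -0.23, -0.09 and -0.06. That for Mrpl45 was 0.26 (0.03 to 0.49; adjusted p = 0.522) and that for Mrps23 was 0.30 (0.02 to 0.57; adjusted p = 0.536). Mrpl18 differed by 0.14 (-0.16 to 0.45) and Mrpl17 by 0.14 (-0.13 to 0.41), so their values with and without PDGF-AA overlapped broadly. At 6 d the arrays of the groups did not overlap for 2 members, Mrpl12 and Mrpl28, both higher with PDGF-AA, against 1.31% of units (1.35% were lower). Mrpl12 read 0.01, -0.14, 0.15 and -0.20 with PDGF-AA, and Mrpl28, the relative of bacterial L28, read 0.03, -0.15, -0.03 and 0.21. At 12 h the 1 such member was Mrpl50, higher with PDGF-AA (1.65% of units, with 0.685% lower), which read 0.22, 0.10, 0.04 and 0.16 with PDGF-AA and -0.06, -0.25, -0.01 and -0.04 without factor. The title number bears on this comparison too. Another number than most is carried by 3 of the 4 PDGF-AA arrays at 6 d and by 1 of the 4 without factor. None of these other numbers occurs in both groups. The fits with the title number in the closing section leave 1 array to PDGF-AA at 6 d. They therefore cannot tell the number's part from that of the treatment.

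Between 12 h and 6 d without factor 1 member differed, Mrpl9, against 1.87% of units (0.454% lower, 1.42% higher). Its arrays at 6 d read -0.34, -0.07, -0.23 and -0.46, all below the 4 arrays at 12 h, and the difference was -0.64 ± 0.14 (95% interval -0.94 to -0.34; adjusted p = 0.028). That call was lost without any of the 4 arrays at 12 h or without array 1, 3 or 4 at 6 d, with an adjusted p of up to 0.105. The arrays of both times did not overlap for Mrpl9, Mrpl10, Mrpl44 and Mrps23, all lower at 6 d, against 2.47% of units, and for none that was higher, against 3.62%. Mrps23 read 0.05, 0.20, 0.17 and 0.14 at 12 h and was below 0 on all arrays at 6 d, a difference of -0.44 ± 0.13 (adjusted p = 0.107). Mrpl44, which carries a ribonuclease-like fold, differed by -0.25 ± 0.16 (adjusted p = 0.633). The members' median difference was -0.143, with 36 of 46 lower at 6 d, against 0.017 over all units.

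With PDGF-AA, limma called 0 members between 12 h and 6 d (1.07% of units passed, 0.438% lower and 0.637% higher; 2 members, or 4.35%, at an unadjusted p under 0.05, against 11.3% of units), and the members' median difference was 0.001. The arrays did not overlap for Mrps17, which lay between -0.13 and -0.08 at 6 d, below all 4 arrays at 12 h (1.36% of units), and for none the other way (1.66%). The gap was small, from -0.0753 on array 4 at 6 d to -0.0658 on array 4 at 12 h. The 2 features of Mrps17 differed at 6 d, with changes of -0.23 and 0.01 against the reference. The interaction of treatment and time called 0 members and 0% of units, with 2 members at an unadjusted p under 0.05, Mrpl10 and Mrpl9 (4.35%, against 3.96% of units).

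Averaged over each subunit on each array, the large subunit without factor at 6 d read -0.327, -0.192, -0.216 and -0.184, a mean of -0.23 ± 0.066 (SD, n = 4). The small subunit read -0.22, -0.05, -0.142 and -0.162 on the same arrays, a mean of -0.144 ± 0.071. The large subunit was below the small on all 4 arrays, by 0.022 at the least and 0.142 at the most, and the difference averaged -0.086 ± 0.051. It was -0.04 without Mrpl1, Mrpl19 and Mrps10, whose arrays spread the widest (a choice made after seeing the data). The order then turned on array 1, where the large subunit read -0.231 and the small -0.252, and nearly closed on array 3 (-0.252 and -0.241) and array 4 (-0.183 and -0.163). The difference was -0.124 with Mrps18a moved to the large subunit as in the structures. Taken as medians over members, array 3 had the large subunit 0.083 above the small.

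In the other groups the subunits did not separate beyond the spread of the arrays. The difference of large minus small was -0.015 ± 0.112 without factor at 12 h, 0.002 ± 0.122 with PDGF-AA at 12 h and 0.035 ± 0.142 with PDGF-AA at 6 d. The large subunit means were -0.076 ± 0.058, -0.062 ± 0.021 and -0.046 ± 0.092 in these groups, and the small subunit means -0.061 ± 0.149, -0.065 ± 0.108 and -0.081 ± 0.122. Over all 46 members the array means without factor at 6 d lay between -0.299 and -0.155, and those of the other 12 arrays between -0.148 and 0.051, so they did not overlap. By medians over members they did, since array 2 without factor at 12 h read -0.192. No p is given for these averages, because the members were chosen with earlier results of these data known.

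**Figure D4:**
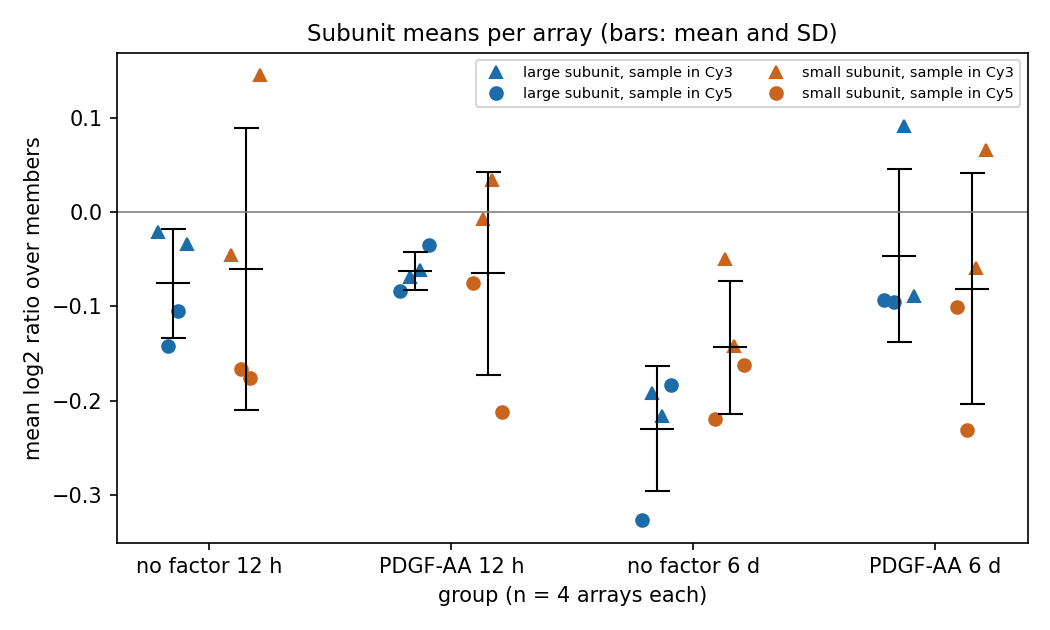
Mean log2 ratio to the reference over the large subunit members (blue) and the small subunit members (orange) on each array, by group (circles, sample in Cy5; triangles, sample in Cy3; bars, mean and SD of 4 arrays). Without factor at 6 d the large subunit mean is -0.23 and the small -0.144, and in the other groups both lie between -0.081 and -0.046.

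The dye that labelled the sample moved many members. A dye effect passed the threshold for 18 of 46 members (39.1%), the same share as over all units (39.1%), with 7 higher and 11 lower where Cy5 labelled the sample. The largest was that of Mrpl19 at -1.65, followed by Mrps9 at -1.28 and Mrps10 at -1.04. Mrps9, whose bacterial relative touches the tRNA in the peptidyl site, shows it plainly: without factor at 12 h its Cy5 arrays averaged -0.72 and its Cy3 arrays 1.23. Mrps15 ran the other way at 0.62, and its Cy3 arrays were the low ones in all 4 groups. Each group held 2 arrays of each orientation and the fit carries a dye term, so the effect is balanced in the changes given above, while the array values show it.

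Counts for other genes of mitochondrial gene expression are set against the 11.7% of units that passed without factor at 12 h and the 13.7% at 6 d. By direction, 6.48% of units were lower and 5.21% higher at 12 h, and 6.73% lower and 6.99% higher at 6 d. With PDGF-AA at 6 d 1.32% were lower and 1.9% higher. Of 19 translation factors and tRNA synthetases tested, 2 were lower without factor at 12 h (10.5%) and 1 at 6 d (5.26%), with a median change at 6 d of -0.02. Gars, the glycyl-tRNA synthetase that serves cytosol and mitochondria, was lower at 12 h (-0.67 ± 0.10; adjusted p = 0.000173) and at 6 d (-0.48 ± 0.10; adjusted p = 0.00233), and Mars2, the mitochondrial methionyl-tRNA synthetase, at 12 h (-0.27 ± 0.08; adjusted p = 0.0377). With PDGF-AA at 6 d the elongation factor gene Tsfm was lower (-0.54 ± 0.14; adjusted p = 0.0445). Of 16 assembly and RNA handling factors, 2 were higher and 2 lower without factor at 12 h (25%), and 2 were lower at 6 d (12.5%). Oxa1l, which inserts mitochondrial translation products into the inner membrane, was higher at 12 h by 0.74 ± 0.19 (adjusted p = 0.015), and so was the helicase gene Dhx30 by 0.38 ± 0.09 (adjusted p = 0.0091). Tfb1m, which methylates the ribosomal RNA of the small subunit, was lower at 12 h (-0.32 ± 0.10; adjusted p = 0.0431). Slirp, which with Lrpprc stabilises mitochondrial messenger RNA, was lower without factor at both times (-0.35 ± 0.08 and -0.51 ± 0.08) and with PDGF-AA at 6 d (-0.34 ± 0.08; adjusted p = 0.0327), and Lrpprc was lower without factor at 6 d (-0.30 ± 0.10; adjusted p = 0.0468).

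Of 13 genes of mitochondrial DNA replication and transcription, Polg, the catalytic subunit of the mitochondrial DNA polymerase, passed without factor at 12 h (-0.39 ± 0.11) and 6 d (-0.72 ± 0.11; adjusted p = 0.00029) and with PDGF-AA at 6 d (-0.42 ± 0.11). The 1 gene tested of 7 ribosomal proteins listed under other symbols did not pass in any comparison with the reference (0 of 1 in limma, also 0 at an unadjusted p under 0.05). Oxidative phosphorylation subunits gave 3 of 57 lower without factor at 6 d (Sdhd at -0.50 ± 0.11, Ndufs8 at -0.32 ± 0.08 and Ndufs1 at -0.31 ± 0.08) and a median of -0.044. The proteins of the cytosolic ribosome gave 17 of 27 lower in that group and a median of -0.318, and 3 of 27 at 12 h; the largest change was that of Rps27l at -0.90 ± 0.12. Side by side without factor at 6 d, the share lower was thus 14 of 46 for the mitochondrial and 17 of 27 for the cytosolic ribosome. For oxidative phosphorylation it was 3 of 57 (5.26%), near the 6.73% of all units that were lower. The difference between these lists was not tested. With PDGF-AA at 6 d, limma called 0 of 27 cytosolic genes (7 at an unadjusted p under 0.05), with a median of -0.167.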

How the data were processed

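Gene expression was measured on 16 two-colour arrays, 4 for each of 4 groups. Per the labels' protocols, 40 micrograms of total RNA were labelled with Cy3 or Cy5 by reverse transcription, hybridised to mouse cDNA chips, scanned with a ScanArray instrument and quantified with QuantArray. The deposited values are log ratios per feature, taken as log2; background correction, normalisation, spot filters, the logarithm's base and the sign of swapped arrays are not given in the sources used here. Swapped arrays were taken as already turned to one direction. The deposited column medians lay between -0.0053 and 0.0387. Without spot intensities the signal over background is not known, and 4 arrays in a group limit the precision.

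Each array was centred on its median over features. Features of 1 symbol were averaged (8833 of 15151 features had exactly 1 symbol, 606 several and 5712 none listed), and units with at least 3 values in each group were kept, which left 12559. limma 3.58.1 in R 4.3.3 fitted 4 group means plus a term for the dye to all 16 arrays at once, with empirical Bayes moderation and Benjamini-Hochberg adjustment over all units (two-sided, threshold 0.05). A comparison with the reference tests the ratio against 0 and leaves out the reference's own spread. The code was tested on simulated data. Members and lists were chosen with earlier results of these data known. Named genes are all members past the threshold in any of the 9 comparisons, the lowest and highest of each subunit against the reference, and Mrps18a. From the background lists at most 3 genes past the threshold are named for each list and comparison. The exception is the assembly factors without factor at 12 h, where all 4 are named. Members with arrays that do not overlap, and Mrpl11 and Mrpl28, were named after their values were seen. Mrps30 and Mrps36 were not among the members. Alternatives were no dye term, no centring, a common spread, the title number, fewer arrays, single features and robust moderation. Promoters were matched by symbol, and 43 of 46 symbols stood in the rat gene table. The cDNA features may not fully separate paralogs such as Mrps18a and Mrps18b, which was not tested.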

Additional observations from a re-analysis of the deposited data

Results flagged for a closer look

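In 8 of 192 sets of 4 arrays (each member and each subunit mean in each group), 1 array lay far from the other 3; chance gives about 1 in 20. Mrpl1 with PDGF-AA at 6 d read 4.31 on array 3, against -0.86 to -0.02 on the others. The large subunit mean with PDGF-AA at 6 d was 0.09 on the same array, against -0.09 on the others, and -0.05 there without Mrpl1 and Mrpl19. Mrpl10 read -0.43 on array 4 with PDGF-AA at 6 d, against -0.08 to -0.02, and without factor at 6 d it read -0.24 on array 4, against -0.44 to -0.41. Mrpl35 with PDGF-AA at 12 h read 0.47 on array 3, against -0.39 to -0.25. Mrps6 with PDGF-AA at 6 d read -0.43 on array 1, against -0.01 to 0.08. Without factor at 6 d, Mrps25 read 0.09 on array 2, against -0.12 to -0.09, and Mrps27 read -0.52 on array 3, against 0.05 to 0.14.

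Mrpl9 stood apart because its ratio to the reference differed between the times without factor by the test of that difference, by -0.64 on the log2 scale, from above 0 at 12 h to below 0 at 6 d.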

How the results depend on the processing

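The count of members past the threshold kept to 0 for both comparisons of PDGF-AA with no factor, for PDGF-AA at 12 h against the reference, for PDGF-AA at 6 d against 12 h and for the interaction under every alternative run. For the comparisons that use PDGF-AA at 6 d, the fits with the title number are left out of that statement. They rest on array 4 alone for that group. Without factor at 6 d against the reference, where 14 were lower, it was 7 with no dye term, 6 with a term for the title number, 4 when only arrays sharing the commonest title number were kept, 4 on the arrays of that group alone, and 4 to 14 on leaving out 1 array at a time. Without factor at 12 h, where 5 passed, it was 3 with no dye term, 3 on the group's arrays alone, 7 (6 lower) both with a term for the title number and on the commonest title number, and 1 to 5 on leaving out an array. With PDGF-AA at 6 d it was 1 with arrays scaled to a common spread (Mrpl18, -0.35). The commonest title number alone leaves 1 array in that group, assumed to vary like the others, so its count is not given. Between 6 d and 12 h without factor it was 0 with no dye term, 0 with a term for the title number, 0 on the commonest title number and 0 to 1 on leaving out an array. The large minus small difference with PDGF-AA at 6 d was -0.155 on the commonest title number. Mrpl12 at 12 h and Mrpl18, Mrpl21 and Mrpl27 at 6 d without factor passed under all 7 other settings and all 16 fits without 1 array. Directions reversed for members that did not pass. Mrps9 without factor at 12 h was -0.05 without array 4 (-0.05 to 0.44 on leaving out 1 array), and with PDGF-AA at 6 d -0.02 without array 2 (-0.02 to 0.44). Mrpl19 without factor at 6 d was 0.09 with a term for the title number, 0.06 on the commonest title number and 0.08 without array 1 (-1.05 to 0.08). Mrpl1 with PDGF-AA at 6 d was -0.30 with that term and -0.40 without array 3 (-0.40 to 1.27). Most of these fits had fewer arrays. Those with a term for the title number used all 16, but that term takes up array 1 without factor at 6 d. It also leaves the change with PDGF-AA at 6 d to array 4 and the dye term. Each reversal of Mrpl19 thus came with array 1 out of the group's change. Why the left-out arrays lay apart was not tested. No paired analysis was possible because the labels carry no replicate numbers (arrays were numbered in accession order). The interaction has no fit on fewer groups, since it uses all 4. The median SE of a member was 0.10 against the reference and 0.14 between treatments.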
